A study of Rattus norvegicus with 9 samples.

Results

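The genes described here encode cytosolic ribosomal proteins and translation factors, the parts of the machinery that makes protein from mRNA. They were taken by symbol: every gene whose symbol began with Rpl or Rps followed by a letter or a number (the S6 kinase genes left out), with Eif followed by a number, or with Eef1 or Eef2. Only probe sets that the array annotation pairs with a single symbol were used, and the brightest by its mean over the 9 arrays stood for a gene. This gave 100 of 10411 genes, of which 44 encode ribosomal proteins and 56 encode translation factors or proteins that act on them. Of the ribosomal protein genes, 28 belong to the large subunit, 12 to the small subunit, and 4 are paralogs of such genes (Rpl3l, Rpl7l1, Rps27l and Rps4y2). The factors comprise 38 initiation subunits and initiation proteins, 8 regulators of initiation, and 10 elongation factors or proteins that modify or bind them. A further 38 probe sets carried a member's symbol together with others, mostly those of pseudogenes or copies, and are given apart.

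Expression was measured on 9 Affymetrix rat arrays. MesE11 is ventral midbrain tissue dissected from rat embryos at embryonic day 11 (3 arrays). MesPC is the primary culture of cells dissociated from such tissue and kept for 9 days in vitro (6 arrays). The labels describe 4 pregnant rats whose embryos were mixed into 3 groups, with the tissue of each group pooled or put into culture in duplicate; they give no strain and no treatment, so the 6 culture arrays come from at most 3 pools of embryos. The p-values therefore speak only of the spread seen among these arrays, part of which may be technical.

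A ribosome is built from a small subunit, which reads the mRNA, and a large subunit, which joins amino acids, and each ribosomal protein is in general needed once per subunit. Initiation factors bring the first tRNA and the small subunit to the mRNA: eIF2 carries the tRNA, eIF2B recharges eIF2 with GTP, eIF3 is a scaffold, and the eIF4 group binds and unwinds the capped end of the mRNA. Elongation factor eEF1A delivers the further tRNAs, the eEF1B subunits recharge it, and eEF2 moves the ribosome along. Vertebrate ribosomal protein mRNAs, and those of several elongation factors, begin with a run of pyrimidines, the 5′ TOP motif, through which growth signals act on their translation.

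The start sites of these genes are shown first because that motif was the shared sequence feature that could be looked for without using the expression values. A pyrimidine tract was taken as a C followed by C or T, 6 or more bases in all, on the strand of the gene and within 25 bases to either side of its annotated start. Of the members, 87 had a single entry in the RefSeq promoter table of assembly GRCr8. Below are 30-base windows, written 5′ to 3′ on the strand of the gene, with the tract in capitals. They show the large-subunit genes Rpl4, Rpl34 and Rpl21, whose values are given further on, Rps6 and Rps23 of the small subunit, the elongation factor genes that are discussed further, and Rps27l, whose window held no tract.
Rpl4 (chr8:73566458-73566487, plus strand): gtgataagttCTTCCTTTTCCTgtgggagc
Rpl34 (chr2:221962279-221962308, minus strand): aactcgcccgCCCCTTCCTTTTCCTCTTCC
Rpl21 (chr12:13386159-13386188, minus strand): gagcgcgcagCCCCTCCCTCTTCCTTTCCg
Rps6 (chr5:106420545-106420574, minus strand): agtcgggcctCTTTTTCgtgacgcctccta
Rps23 (chr2:23814505-23814534, plus strand): gtccttcctgCCTCTCTTCTCTCTTTCTCT
Eef1a1 (chr8:88225051-88225080, minus strand): cttggacgttCTTTTTCgcaacgggtttgc
Eef1b2 (chr9:72074083-72074112, plus strand): ccggtcccggCCCTTTTTCTCCCTCagcgc
Eef1a2 (chr3:188652637-188652666, minus strand): ctcggtggttCTCTCCCTCgctcgggtaca
Rps27l (chr8:76443643-76443672, plus strand): gtttattcatttgtcattatttgtggtgtc

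The tract was present at 31 of 39 ribosomal protein genes with a promoter entry (79.5%) and at 22 of 48 factor genes (45.8%). The same search found it at 32.5% of the 8123 promoters of genes on the array and at 33.9% of all 24206 RefSeq promoters with a single entry per symbol. On the other strand of the ribosomal protein windows it was found at 30.8%, against 37.9% for the array's genes. A match describes these letters alone, and the start of a transcript in these cells was not measured. The tracts shown for Rpl21, Rps6 and Eef1a2 began at -25, -24 and -23 from the annotated start and were 19, 7 and 9 bases long. They thus ended before that start, and whether they lie in the mRNA was not tested.

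Values below are log2 intensities, and a difference is the culture mean minus the tissue mean, so that a log2 difference of 1 is a doubling. Rose and fell are used of genes whose p from limma's moderated test, adjusted by the Benjamini-Hochberg method over all 15866 probe sets, was under 0.05. Of all 10411 genes, 44.6% passed: 21.9% were higher in culture and 22.7% were lower. Array medians lay between 8.60 and 8.66. The authors' normalization brings the arrays to nearly the same distribution, so a difference is relative to other probe sets, and in RNA from whole tissue or whole cultures fewer cells of a type and less RNA per cell cannot be told apart. An intensity also depends on the probes, so places and ranks of intensity below describe probe sets and not amounts of mRNA.

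The culture arrays fell into 2 sets, numbers 1 to 3 and numbers 4 to 6, for which the labels give no reason: correlations over all genes were 0.997 to 0.998 within a set and 0.982 to 0.987 between sets. The tissue arrays correlated at 0.995 to 0.997. Marker lists moved with the same contrasts. Of 7 neuron markers measured, 5 fell in culture, and their median level per array was 12.9 to 13.2 in tissue, 10.8 to 11.2 on culture arrays 1 to 3 and 12.5 on each of arrays 4 to 6. All 7 cell cycle genes rose, with medians of 8.55 to 8.80 in tissue, 10.5 to 10.6 on arrays 1 to 3 and 9.88 to 10.2 on arrays 4 to 6. All 7 fibroblast markers and 4 of 6 astrocyte markers rose, while 7 of 7 erythroid, 3 of 4 endothelial and 5 of 7 microglia and macrophage markers fell. No marker reads 0 on this scale, and the part of these cell types in the results on the translation machinery was not tested.

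The probe sets of ribosomal protein genes read near the top of the intensity range, and most of them differed little between tissue and culture. Their median intensity was 13.4 in both groups, and their median place among all genes was the 99.6th percentile of intensity. The highest value of the whole table was 14.78, and whether differences are compressed near that end was not tested. Of the 44, 5 rose (11.4%, against 21.9% of all genes), 1 fell (2.27%, against 22.7%) and 38 did not pass the test. The median log2 difference was 0.02, and it turned to -0.02 when the arrays were centred on the median over all probe sets. It turned to -0.05 when they were centred on the brightest 10% of probe sets, without those of single-symbol members. The median size of the difference without its sign was 0.10, against 0.21 over all genes. Among the 10% of genes with the highest intensity, members left out (975 genes, called bright genes below, with array medians of 11.7 to 11.9, below those of the ribosomal proteins), 28.7% rose and 14.7% fell, with a median size of 0.21. The subunit genes without the 4 paralogs ran from a log2 difference of -0.16 (Rpl35a) to 0.31 (Rpl22), with standard errors of 0.05 to 0.12.

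**Figure D1:**
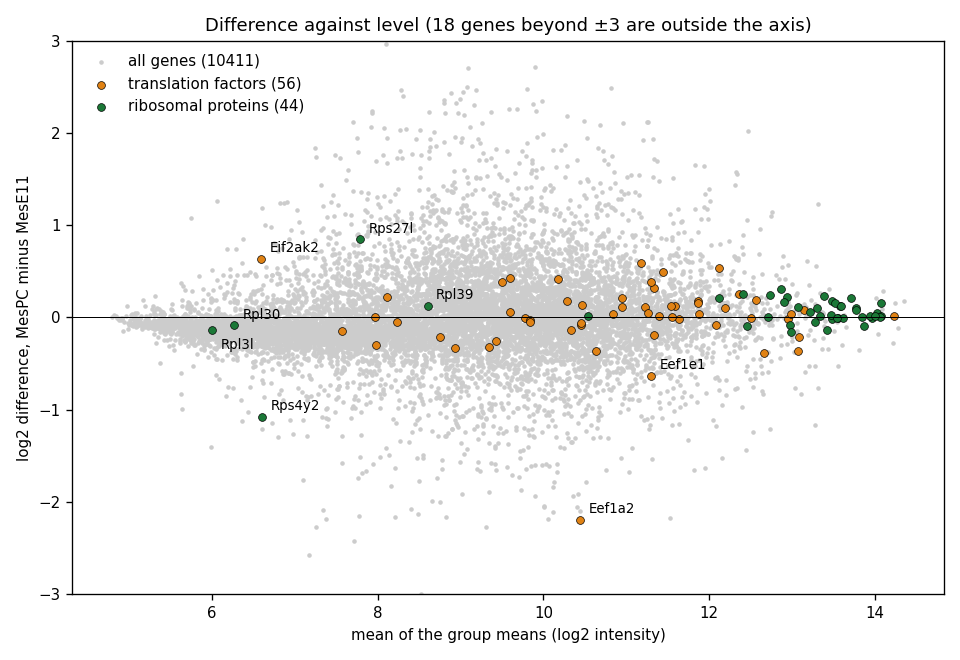
Log2 difference, culture minus tissue (vertical axis), against the mean of the 2 group means in log2 intensity (horizontal axis), with 1 point per gene: grey for all 10411 genes (18 lie outside the vertical axis, beyond 3 in either direction), green for ribosomal proteins and orange for translation factors. Most ribosomal protein genes lie at the bright end near 0. The dim paralogs Rps27l (0.85) and Rps4y2 (-1.07) lie furthest from 0 among them, and Rpl30, Rpl39 and Rpl3l are dim too. Eef1a2 (-2.19) is the lowest of the factors.

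Of the 28 large-subunit genes 4 rose and 0 fell by this test (14.3% and 0%, against 21.9% and 22.7% of all genes). Their median log2 difference was 0.09. In 8 of the 28 the groups were fully apart, all 6 culture values above all 3 tissue values (21.1% of all genes), and in 0 all were below (23.3% of all genes). Rpl4, a protein that lines the exit tunnel of the large subunit, read 12.56, 12.72 and 12.55 in tissue and 12.77 to 12.99 in culture, with a median of 12.82. The groups did not overlap, and the log2 difference was 0.25 ± 0.07 (SE, n = 3 and 6; limma adjusted p = 0.018). Rpl27 read 13.11, 13.38 and 13.33 in tissue and 13.45 to 13.57 in culture, with a median of 13.51. Its tissue array 1 stood below the other tissue arrays, and the difference was 0.24 ± 0.07 (adjusted p = 0.017).

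Rpl34 read 13.42, 13.39 and 13.36 in tissue and 13.51 to 13.62 in culture, with a median of 13.58 and a difference of 0.18 ± 0.05 (adjusted p = 0.0149). Rpl21 read 12.02, 12.03 and 11.99 in tissue and 12.15 to 12.46 in culture, with a median of 12.17 and a difference of 0.21 ± 0.07 (adjusted p = 0.0421). All of its culture values lay above the tissue, and culture array 2 was the highest of them. Each of the 4 calls ended when a single array was left out: Rpl4 without tissue array 1 or 3 (adjusted p up to 0.0754, and 0.00465 to 0.142 over all 20 alternatives tried), Rpl27 without tissue array 1 (0.0695, and 0.0135 to 0.176 over all), Rpl34 without tissue array 3 (0.0534, and 0.0107 to 0.173 over all), and Rpl21 without any 1 tissue array or without culture array 1 or 5 (up to 0.118, and 0.0193 to 0.253 over all).

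Rpl22 had the widest difference of the subunit genes but did not pass. Its values were 12.71, 12.79 and 12.64 in tissue and 12.73 to 13.25 in culture, with a median of 13.04. The culture arrays were split, with means of 13.23 on arrays 1 to 3 and 12.82 on arrays 4 to 6, and the difference of 0.31 ± 0.12 had an adjusted p of 0.0631. Rpl14, at 0.25 ± 0.10 (adjusted p = 0.0586), and Rpl12, at 0.22 ± 0.09 (adjusted p = 0.0773), showed the same kind of spread. Rpl35a was the lowest, at -0.16 ± 0.07 (adjusted p = 0.0773). Rplp0, which forms the base of the ribosomal stalk, differed by -0.00 ± 0.06, and Rpl3 and Rpl7 by 0.13 ± 0.06 and -0.00 ± 0.06. Rpl30 and Rpl39 had the dimmest probe sets of the large subunit: the single-symbol probe set of Rpl30 averaged 6.31 in tissue and 6.23 in culture, within the range of the bacterial control probe sets (4.87 to 6.56), and Rpl39 averaged 8.54 and 8.67. A probe set shared by Rpl30 and its copies read 13.13 in tissue and 13.01 in culture.

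Of the 12 small-subunit genes with a probe set of their own, 0 passed the limma test in either direction, against 44.6% of all genes. Their log2 differences ran from -0.14 (Rps15a) to 0.21 (Rpsa) with a median of 0.02. Some probe sets that other small-subunit genes share with copies did pass. Higher in culture were that of Rps18 (0.28 ± 0.07) and a probe set of Rps2 (0.25 ± 0.06). Lower were those of Rps25 (-0.41 ± 0.08), Rps21 (-0.27 ± 0.05) and Rps27 (-0.19 ± 0.06). Rps6, the small-subunit protein phosphorylated by the S6 kinases, read 13.95, 14.06 and 13.97 in tissue and 13.86 to 14.14 in culture, with a median of 13.99. The groups overlapped, and the difference was 0.02 ± 0.07 (adjusted p = 0.861). Rps15a was the only 1 of the 12 genes whose culture values all lay below the tissue (23.3% of all genes). In 0 of the 12 all lay above (21.1% of all genes). Rps15a read 13.53, 13.49 and 13.44 in tissue and 13.18 to 13.41 in culture, with a median of 13.38. Its difference was -0.14 ± 0.06 with an adjusted p of 0.107. Rpsa, whose protein also has been described as a laminin receptor, read 13.76, 13.64 and 13.41 in tissue and 13.61 to 13.95 in culture, with a median of 13.83, and its difference of 0.21 ± 0.09 did not pass (adjusted p = 0.0827). Its dimmer probe sets differed the other way, by -0.08 ± 0.07 and -0.13 ± 0.08, and did not pass either.

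Of the 4 paralogs 1 rose and 1 fell (25% each, close to the 21.9% and 22.7% of all genes). Both changed by more than any subunit gene, and the other 2 differed by amounts within the range of the subunit genes. Rps27l, a paralog of Rps27 known as a target of p53, read 7.16, 7.55 and 7.39 in tissue and 7.85 to 8.80 in culture, with a median of 8.11. All 6 culture arrays were above the tissue, arrays 1 to 3 (mean 8.55) further than arrays 4 to 6 (mean 7.88), and the rise was 1.80-fold (log2 difference 0.85 ± 0.21, adjusted p = 0.0106; 0.0527 without tissue array 1, and 4.0e-07 to 0.0527 over all alternatives). Rps4y2, a paralog of the small-subunit protein S4, read 6.97, 7.39 and 7.08 in tissue and 5.96 to 6.19 in culture, with a median of 6.07. It fell 2.11-fold with no overlap (log2 difference -1.07 ± 0.09, adjusted p = 1.4e-05), but the culture values lie within the range of the bacterial control probe sets, so the true fall may be larger. Rpl7l1 differed by 0.01 ± 0.08, and Rpl3l, with means of 6.08 and 5.93 in that same control range, by -0.14 ± 0.06 (adjusted p = 0.0924).

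**Figure D2:**
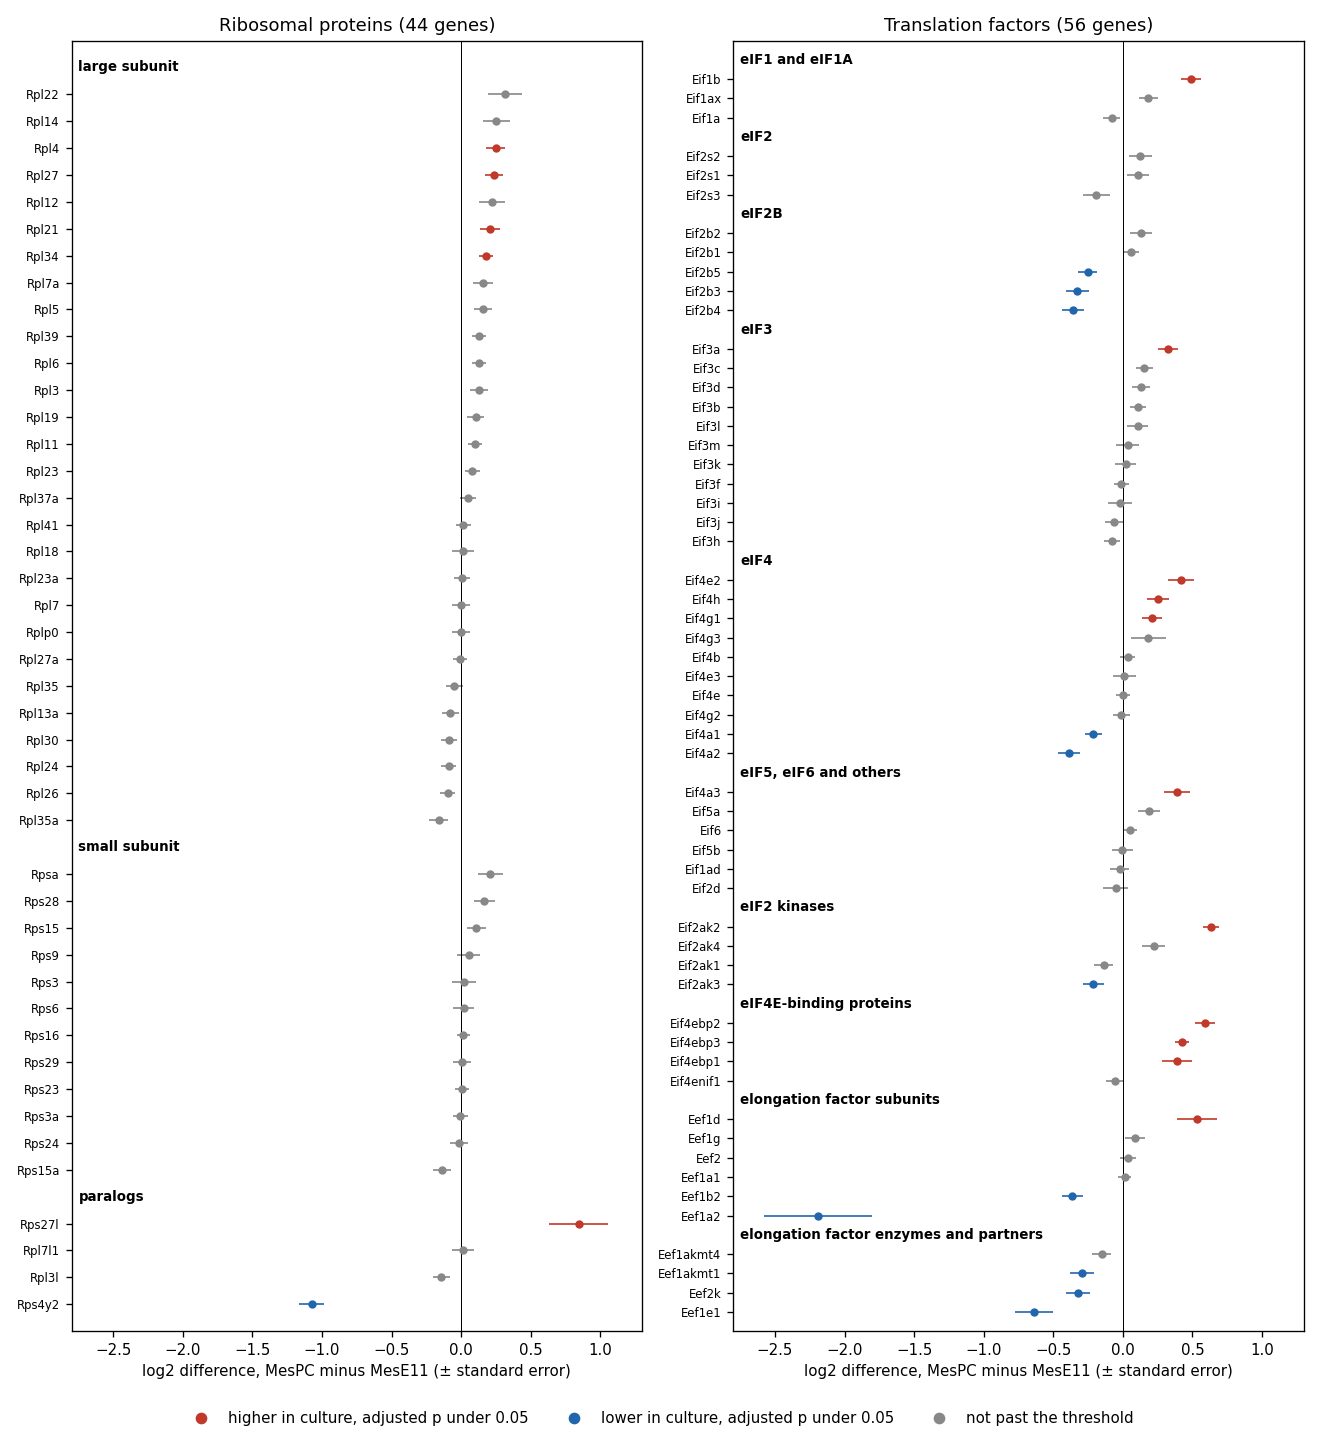
Log2 difference between culture and tissue for each gene (points on the horizontal axis, with bars of 1 standard error), ribosomal proteins on the left and factors on the right, grouped by class; red marks genes that rose, blue genes that fell and grey genes that did not pass limma's adjusted p of 0.05. The subunit genes of the ribosome crowd around 0, within -0.16 to 0.31, and the factors run from -2.19 (Eef1a2) to 0.63 (Eif2ak2).

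The ribosomal protein genes moved together between the 2 sets of culture arrays. This pattern is a description without a test, because the sets were known from earlier results of these data. In all 40 subunit genes the mean of culture arrays 1 to 3 was above that of arrays 4 to 6, whereas this held for 56.9% of all genes and 37.2% of the bright genes. In 25 of the 40 (62.5%) each of arrays 1 to 3 read above each of arrays 4 to 6, and in 0 each read below, while over all genes 26.0% were fully above and 22.4% fully below. Among the bright genes these shares were 19.4% and 38.8%. The size was small: the median of arrays 1 to 3 minus arrays 4 to 6 was 0.09 over the 40 genes, with a range of 0.00 to 0.40, and -0.07 over the bright genes. The 34 ribosomal probe sets with several symbols, which the member rule leaves out, had the same direction in 34 of 34, with 20 fully above. Genes of a class are not replicates, since all of them were read on the same 6 arrays.

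The number of ribosomal genes that passed differed between the sets. The medians over the 40 subunit genes, taken as each array's deviation from the tissue mean, were -0.01, 0.05 and -0.03 on the tissue arrays, 0.10, 0.15 and 0.07 on culture arrays 1 to 3, and 0.00, 0.03 and -0.02 on arrays 4 to 6. Culture arrays 1 to 3 stood above the tissue and arrays 4 to 6 lay among the tissue arrays. With arrays 1 to 3 alone against the tissue 13 of the 44 rose and 1 fell (25.7% and 27.0% of all genes did so), and with arrays 4 to 6 alone 1 rose and 2 fell (22.9% and 27.2%). When the sets were entered as a random block, 1 rose, Rps27l, and 1 fell, Rps4y2, against 13.2% and 9.11% of all genes. The 5 that rose became 1 without tissue array 1, 2 without tissue array 3 and 9 without culture array 6. Of all genes 17.8%, 17.3% and 22.3% rose in these 3 fits, against 21.9% with all arrays. The 1 that fell became 2 without tissue array 2 or 3, where 17.2% and 14.7% of all genes fell. As given above, neuron markers were lower and cell cycle genes higher on arrays 1 to 3 than on arrays 4 to 6; their part in this pattern was not tested.

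**Figure D3:**
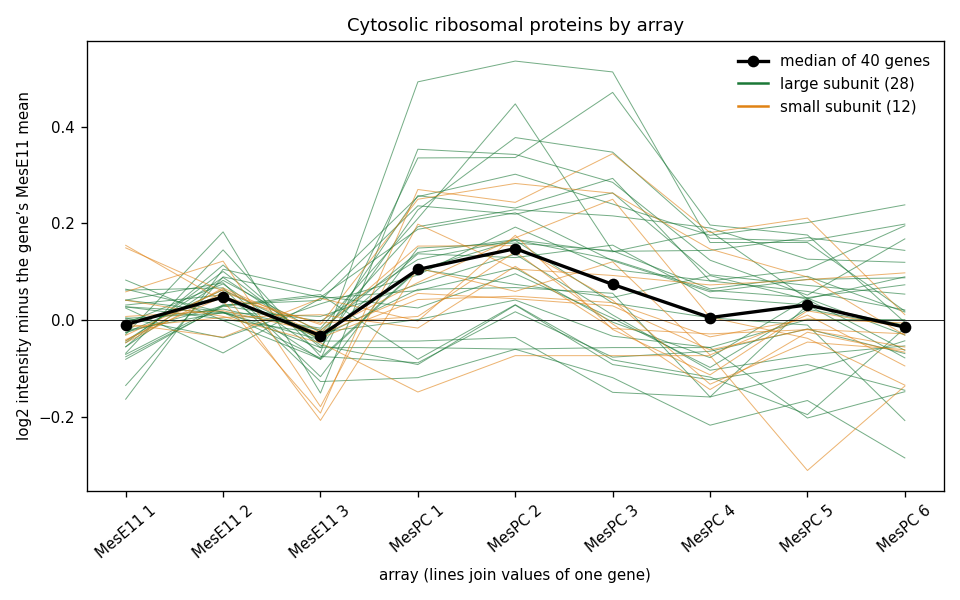
Deviation of each of the 40 ribosomal subunit genes from its tissue mean (vertical axis, log2 units) on each of the 9 arrays (horizontal axis), with 1 line per gene (green for the large subunit, orange for the small) and the median in black. The medians stand at 0.10, 0.15 and 0.07 on culture arrays 1 to 3 and at 0.00, 0.03 and -0.02 on culture arrays 4 to 6.

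Translation factors changed in both directions, most of them by little; the exceptions were Eef1a2, which fell 4.57-fold, and Eef1e1 and Eif2ak2, which changed 1.55-fold. Of the 56, 11 rose and 11 fell (19.6% each), close to the 21.9% and 22.7% of all genes, and 34 did not pass. Their median log2 difference was 0.03 and the median size was 0.15. With the random block 6 rose and 4 fell (13.2% and 9.11% of all genes did so), and without tissue array 1 the falls numbered 6 (16.2% of all genes). With arrays 1 to 3 alone 16 rose and 10 fell (25.7% and 27.0% of all genes). With arrays 4 to 6 alone 13 rose and 9 fell (22.9% and 27.2% of all genes). In 22 of the 56 (39.3%, against 26.0% of all genes) each of arrays 1 to 3 was above each of arrays 4 to 6. In 8 (14.3%, against 22.4%) each was below.

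Among the initiation subunits and proteins, 6 of 38 rose and 5 fell (15.8% and 13.2%, below the 21.9% and 22.7% of all genes). Eif1b, a close relative of the start-codon factor Eif1, read 11.18, 11.24 and 11.19 in tissue and 11.52 to 11.81 in culture, with a median of 11.72. Its groups were well apart, and it rose 1.40-fold (log2 difference 0.49 ± 0.07, adjusted p = 5.5e-04). Its call held under all 20 alternatives, as did those of Eif4a2, Eif4e2, Eif4ebp2, Eif4ebp3, Eef1a2, Eef1b2 and Eef1e1 below. Eif1ax, the X-linked gene of the scanning factor eIF1A, was above the tissue on all 6 culture arrays without passing (0.18 ± 0.07, adjusted p = 0.0574), and Eif1a, at -0.08 ± 0.06, did not pass (adjusted p = 0.309).

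The 3 subunits of eIF2 did not pass: Eif2s1, the subunit that the stress kinases phosphorylate, differed by 0.11 ± 0.08, Eif2s2 by 0.13 ± 0.08 and Eif2s3 by -0.19 ± 0.10. Of the 5 subunits of its exchange factor eIF2B, 3 fell and 0 rose (60% and 0%, against 22.7% and 21.9% of all genes). Eif2b4, part of the regulatory core, read 10.85, 10.86 and 10.74 in tissue and 10.28 to 10.65 in culture, with a median of 10.46. It fell by 0.36 ± 0.08 (adjusted p = 0.00529), and every culture array was below every tissue array. Eif2b3, of the catalytic part, read 9.06, 9.13 and 9.12 in tissue and 8.60 to 8.95 in culture, with a median of 8.77, and fell by 0.33 ± 0.08 (adjusted p = 0.010). Eif2b5, which carries the exchange activity, fell by 0.25 ± 0.07 (adjusted p = 0.0149). Its groups did not overlap either, with 9.68, 9.59 and 9.41 in tissue and 9.20 to 9.39 in culture around a median of 9.32, but its second probe set differed by only -0.12 ± 0.07 (adjusted p = 0.193) and its call ended without tissue array 1 or 2 (adjusted p up to 0.0721, and 0.00177 to 0.193 over all alternatives). Eif2b1 and Eif2b2, the other subunits of the core, differed by 0.06 ± 0.06 and 0.13 ± 0.08 and did not pass. None of the 3 falls passed with the random block, which was the only alternative of 20 that ended the calls of Eif2b4 (adjusted p = 0.0596, and 4.7e-04 to 0.0596 over all) and Eif2b3 (0.0715, and 3.5e-04 to 0.0715 over all).

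Of the 11 eIF3 subunits 1 rose and 0 fell (9.09% and 0%, against 21.9% and 22.7% of all genes). That was Eif3a, the large scaffold subunit, with 11.10, 11.21 and 11.20 in tissue and 11.39 to 11.67 in culture around a median of 11.48. The difference was 0.32 ± 0.07 (adjusted p = 0.00613; 0.0912 with the random block, and 0.00328 to 0.0912 over all alternatives). The other 10 ran from -0.08 (Eif3h) to 0.15 (Eif3c), and their groups overlapped, as did those of 5788 of all 10411 genes. The probe set of Eif3e, which is shared with a copy and not among the 11, fell by 0.25 ± 0.07.

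In the cap-binding eIF4 group 3 of 10 genes rose and 2 fell (30% and 20%, against 21.9% and 22.7% of all genes). Both of the fallen genes encode the helicase eIF4A. Eif4a2 read 12.91, 12.86 and 12.81 in tissue and 12.32 to 12.59 in culture, with a median of 12.48. All culture arrays were below the tissue, and the fall was 0.39 ± 0.08 (adjusted p = 0.0039). Eif4a1 read 13.18, 13.22 and 13.16 in tissue and 12.84 to 13.07 in culture, with a median of 13.00, and fell by 0.21 ± 0.06 (adjusted p = 0.0206; up to 0.0682 without tissue array 1 or 2, and 0.00628 to 0.146 over all alternatives). Eif4e, the cap-binding protein itself, read 11.57, 11.51 and 11.56 in tissue and 11.49 to 11.63 in culture, with a median of 11.55. Its groups overlapped, and it differed by 0.00 ± 0.05 (adjusted p = 0.964).

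Eif4e2, a related cap-binding protein with a repressive role, read 9.87 to 10.04 on the 3 tissue arrays and 10.22 to 10.56 in culture, with a median of 10.36. It rose by 0.42 ± 0.09 (adjusted p = 0.00568) with no overlap. Eif4h, a helper of the helicase, read 12.12, 12.25 and 12.33 in tissue and 12.38 to 12.62 in culture around a median of 12.46, and rose by 0.25 ± 0.08 (adjusted p = 0.0269; up to 0.116 without tissue array 1 or 2, and 0.00213 to 0.143 over all alternatives). Eif4g1, the scaffold of the cap complex, rose by 0.21 ± 0.07 with overlapping groups (adjusted p = 0.0364), from 10.73, 10.97 and 10.84 in tissue to 10.93 to 11.16 in culture around a median of 11.05. That call ended in 6 of the 9 fits with an array left out (tissue array 1 or 3, culture array 3, 4, 5 or 6; adjusted p up to 0.153, and 0.0124 to 0.219 over all alternatives). Eif4g2, Eif4g3, Eif4e3 and Eif4b did not pass, at -0.01 ± 0.06, 0.18 ± 0.13, 0.01 ± 0.08 and 0.03 ± 0.05. Eif4a3, which despite its name belongs to the exon junction complex, rose by 0.39 ± 0.09 (adjusted p = 0.00817), from 10.92, 11.38 and 11.03 in tissue to 11.43 to 11.59 in culture around a median of 11.49; the random block ended its call (0.108, and 5.7e-04 to 0.108 over all alternatives).

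Eif5a, Eif5b and Eif6 did not pass. The probe sets of Eif5, which are shared with a copy, went different ways and are given further on. Eif5a, the hypusine-bearing factor that helps stalled ribosomes, differed by 0.19 ± 0.08 (adjusted p = 0.0829), Eif5b, which joins the subunits, by -0.00 ± 0.07, and Eif6, which keeps the large subunit apart, by 0.05 ± 0.05.

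The regulators of initiation were the class with the highest median, at 0.30 over 8 genes. Of these, 4 rose and 1 fell (50% and 12.5%, against 21.9% and 22.7% of all genes). Of the 3 genes of the classical eIF4E-binding proteins, which hold back cap-dependent initiation when mTORC1 is inactive, 3 rose. Eif4ebp2, the form that is abundant in brain, read 10.96, 10.98 and 10.70 in tissue and 11.41 to 11.55 in culture, with a median of 11.46. It rose 1.50-fold (log2 difference 0.59 ± 0.07, adjusted p = 1.5e-04). Eif4ebp3 read 9.32, 9.48 and 9.34 in tissue and 9.75 to 9.85 in culture, with a median of 9.81, and rose 1.34-fold (0.42 ± 0.05, adjusted p = 1.9e-04). For both genes the culture arrays agreed closely, and the sets of culture arrays differed little: the means of arrays 1 to 3 and 4 to 6 were 11.49 and 11.44 for Eif4ebp2, and 9.82 and 9.79 for Eif4ebp3. Eif4ebp1 read 9.44, 9.13 and 9.36 in tissue and 9.50 to 9.92 in culture, with a median of 9.69. Its difference of 0.39 ± 0.11 passed (adjusted p = 0.0163), but not without tissue array 2 (0.0759) or with the random block (0.0872), and ran from 2.7e-04 to 0.0872 over all alternatives. Eif4enif1, which carries eIF4E into the nucleus, did not pass (-0.05 ± 0.06, adjusted p = 0.512).

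Of the 4 kinases that phosphorylate eIF2, 1 rose and 1 fell (25% each, close to the 21.9% and 22.7% of all genes). Eif2ak2 (PKR), which senses double-stranded RNA and is induced by interferon, read 6.25, 6.21 and 6.38 in tissue and 6.84 to 6.97 in culture, with a median of 6.93. The groups were far apart for their spread, and the rise was 1.55-fold (0.63 ± 0.06, adjusted p = 2.0e-05). Its tissue values lie within the range of the bacterial control probe sets, so the fold may be understated. Eif2ak3 (PERK), the kinase of endoplasmic reticulum stress, fell by 0.21 ± 0.08 with overlapping groups and an adjusted p of 0.0499. That call ended in 7 of the 9 fits with an array left out (all but tissue array 2 and culture array 6; adjusted p up to 0.173, and 0.022 to 0.305 over all alternatives). Eif2ak4 (GCN2), which senses amino acid shortage, differed by 0.22 ± 0.08 (adjusted p = 0.0506), and Eif2ak1 (HRI), which senses haem, by -0.14 ± 0.07 (adjusted p = 0.13).

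Elongation genes had the lowest median, at -0.22 over 10 genes. Of these, 1 rose and 5 fell (10% and 50%, against 21.9% and 22.7% of all genes). Eef1a1, the general form of the tRNA-delivering factor, read 14.22, 14.23 and 14.23 in tissue and 14.18 to 14.32 in culture, with a median of 14.23. The groups overlapped, and the difference was 0.01 ± 0.05 (adjusted p = 0.833). Eef1a2, the form known from mature neurons and muscle, read 11.55, 11.54 and 11.53 in tissue and 8.46 to 10.20 in culture, with a median of 9.34. It fell 4.57-fold (log2 difference -2.19 ± 0.39, adjusted p = 0.00168), the only factor gene past 2-fold. The 3 tissue arrays agreed closely, whereas the culture arrays split by set: 8.46, 8.76 and 8.75 on arrays 1 to 3 and 10.01, 10.20 and 9.92 on arrays 4 to 6. The difference was -2.89 with arrays 1 to 3 alone and -1.50 with arrays 4 to 6 alone. The medians of the neuron markers split in the same order, at 12.9 to 13.2 in tissue, 10.8 to 11.2 on arrays 1 to 3 and 12.5 on arrays 4 to 6, and their part in the fall of Eef1a2 was not tested.

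The subunits that recharge eEF1A did not move alike. Eef1b2, an exchange subunit, read 13.33, 13.22 and 13.23 in tissue and 12.77 to 13.02 in culture, with a median of 12.91. It fell by 0.36 ± 0.07 (adjusted p = 0.00348) with no overlap. Eef1d, the other exchange subunit, read 11.93, 11.92 and 11.72 in tissue and 12.03 to 12.68 in culture, with a median of 12.44. It rose by 0.53 ± 0.14 (adjusted p = 0.0145; 0.0705 without tissue array 3, and 1.6e-05 to 0.0705 over all alternatives), and arrays 1 to 3 (mean 12.62) stood above arrays 4 to 6 (mean 12.16). Eef1g, the scaffold of the exchange complex, differed by 0.08 ± 0.07 (adjusted p = 0.347), and Eef2, the translocating factor, by 0.04 ± 0.06 (adjusted p = 0.594).

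Of the 4 enzymes and partners of the elongation factors 3 fell (75%, against 22.7% of all genes). Eef1e1, a scaffold protein of the multi-synthetase complex, read 11.70, 11.47 and 11.69 in tissue and 10.65 to 11.23 in culture, with a median of 11.01. It fell by 0.64 ± 0.14 (adjusted p = 0.00468), further on arrays 1 to 3 (mean 10.77) than on arrays 4 to 6 (mean 11.20). Eef2k, the kinase that inactivates eEF2, read 9.62, 9.38 and 9.53 in tissue and 9.00 to 9.36 in culture, with a median of 9.19, and fell by 0.32 ± 0.08 (adjusted p = 0.0126; 0.0614 without tissue array 1, and 0.00398 to 0.737 over all alternatives, the highest with its dimmest probe set). Its other 3 probe sets, all dimmer, differed by 0.18, -0.04 and -0.03 and did not pass. The methyltransferase gene Eef1akmt1 fell by 0.29 ± 0.08 (adjusted p = 0.0187; up to 0.0743 without tissue array 1 or 2, and 0.00107 to 0.168 over all alternatives), and Eef1akmt4, at -0.15 ± 0.07, did not pass (adjusted p = 0.0994).

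**Figure D4:**
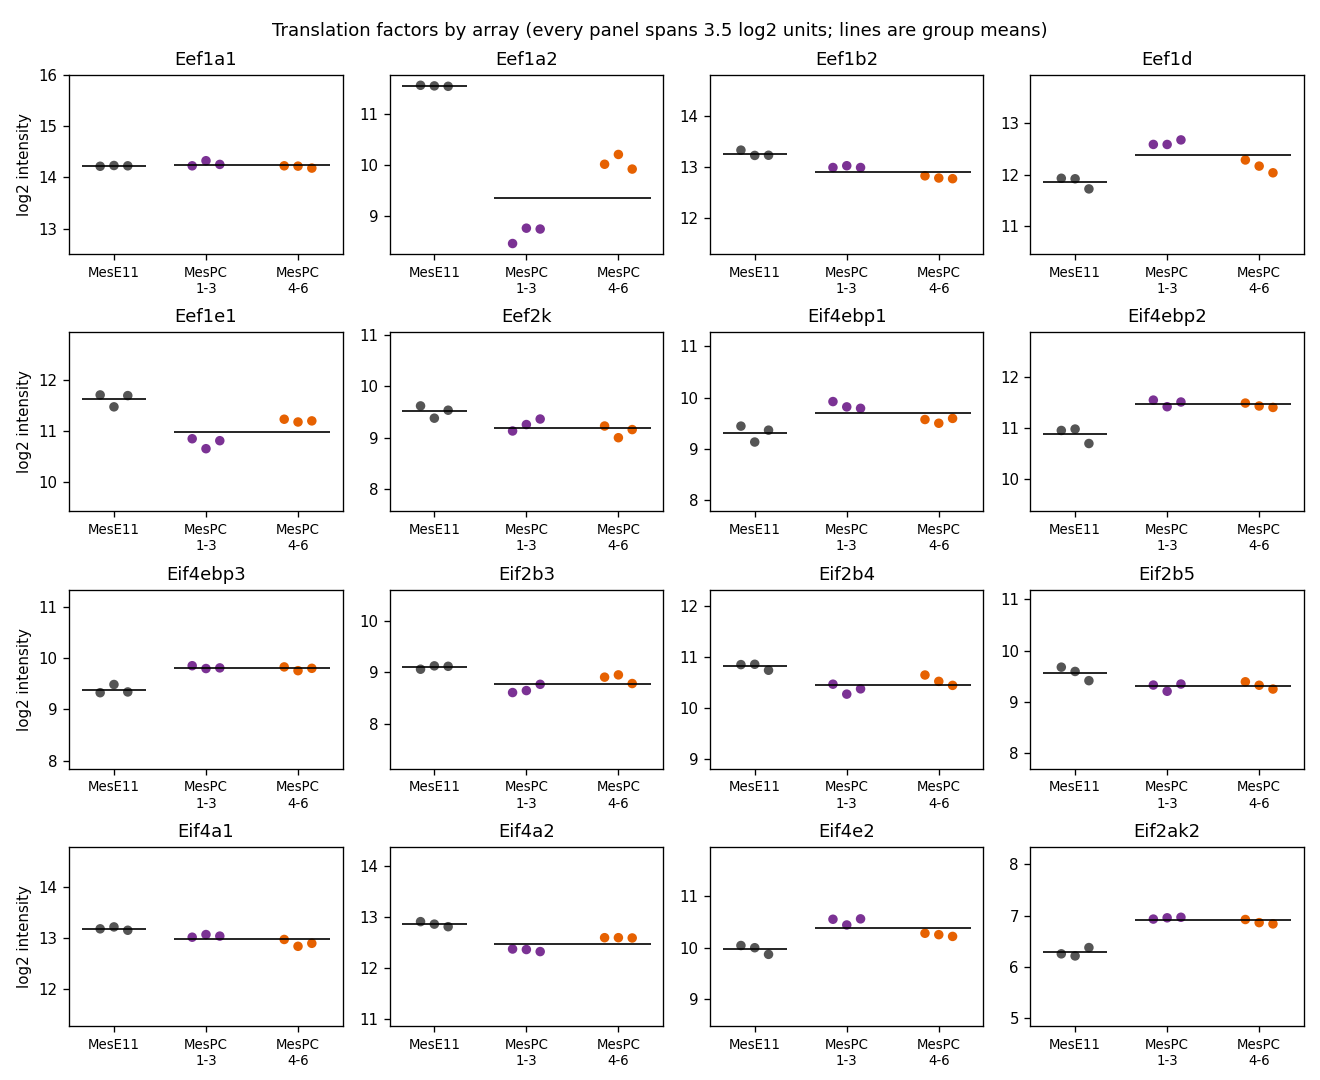
Log2 intensity (vertical axis) of 16 factor genes, 1 panel per gene, with 1 point per array in tissue (grey), culture arrays 1 to 3 (purple) and culture arrays 4 to 6 (orange); lines are the means of the tissue and of all culture arrays, and every panel spans the same number of log2 units. Eef1a1 stays between 14.18 and 14.32 while Eef1a2 drops from 11.5 in tissue to 8.46 to 8.76 on culture arrays 1 to 3 and 9.92 to 10.20 on arrays 4 to 6, and Eif4ebp2 and Eif4ebp3 are above the tissue on all 6 culture arrays.

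The changes are given here by whether a gene's start site held the pyrimidine tract shown above. Of the 31 ribosomal protein genes with a tract 3 rose and 1 fell, with a median log2 difference of 0.05, and of the 8 without it 1 rose and 0 fell, with a median of 0.06. Of the 22 factor genes with a tract 6 rose and 6 fell, with a median of 0.02, and of the 26 without it 2 rose and 5 fell, also with a median of 0.02. Over all genes 21.9% rose and 22.7% fell, and the difference between genes with and without the tract was not tested.

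Paralogous pairs show whether a change was shared by related genes. The log2 ratio within an array was compared between tissue and culture for 11 pairs by a two-sided exact permutation test over the arrays, whose smallest possible p with 3 and 6 arrays is 0.0238. The ratio of Eef1a2 to Eef1a1 fell by 2.21 (exact p = 0.0238), that of Eif4e2 to Eif4e rose by 0.41, that of Eif1ax to Eif1a rose by 0.26, and that of Eif4g2 to Eif4g1 fell by 0.22, each with the same smallest p. After Benjamini-Hochberg adjustment over the 11 pairs these 4 had a p of 0.0655, so that none of the exact tests passed, although all 6 culture ratios lay on one side of the tissue ratios in each. Over all 6 culture arrays the falls of the 2 helicase genes could not be told apart (Eif4a2 minus Eif4a1 -0.17, exact p = 0.310). The culture sets went opposite ways in these genes. Eif4a2 averaged 12.35 on arrays 1 to 3 and 12.59 on arrays 4 to 6, and Eif4a1 13.04 and 12.91. The rises of Eif4ebp2 and Eif4ebp1 could not be told apart either (0.20, exact p = 0.190). Each such ratio shows unequal change, not which gene was constant.

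Lists of genes that work beside these members were also chosen with earlier results known, and they are described by counts against the 21.9% of all genes that rose and the 22.7% that fell. Of 44 ribosome assembly genes measured, 11 rose and 7 fell, with a median of -0.01, among them Ltv1 (0.71 ± 0.08) and Tsr1 (0.58 ± 0.09), which act on the small subunit, and Wdr12 (-0.45 ± 0.08), which acts on the large, beside Gnl3l (-0.44 ± 0.13), a nucleolar GTPase. Of 71 mitochondrial ribosomal protein genes 12 rose and 10 fell, with Mrpl22 at 0.64 ± 0.10, Mrps7 at 0.45 ± 0.07, Mrpl14 at -0.51 ± 0.10 and Mrpl12 at -0.39 ± 0.06. Of 21 cytosolic tRNA synthetase genes, which charge tRNAs, 6 rose and 1 fell, with Nars1 at 0.53 ± 0.07, Eprs1 at 0.48 ± 0.06 and Farsb at -0.26 ± 0.07. Of 25 genes of mTORC1 and the S6 kinases 10 rose and 2 fell, with a median of 0.10, including Rragd (0.61 ± 0.08), a GTPase that brings mTORC1 to the lysosome, and Mknk1 (0.59 ± 0.07), which phosphorylates eIF4E, and the mTORC1 inhibitors Ddit4 (-0.26 ± 0.08) and Deptor (-0.19 ± 0.07). Of 10 genes of poly(A) binding, termination and recycling 2 rose and 4 fell, with the release factor genes Gspt1 at 0.45 ± 0.07 and Gspt2 at -0.45 ± 0.16, the recycling factor gene Abce1 at 0.26 ± 0.06 and Paip1, which binds the poly(A)-binding protein, at -0.53 ± 0.16. The 4 falls of this list became 0 when any 1 tissue array was left out, and the 6 calls became 1 with the random block. Of all genes 16.2%, 17.2% and 14.7% fell without tissue array 1, 2 and 3. Rack1, a protein bound to the small subunit, fell by 0.15 ± 0.05, 1 of 2 such partners measured, and lost its call with the random block and without any 1 tissue array or any 1 of culture arrays 1, 3, 4, 5 and 6. The random block also took the calls from 18 to 5 for ribosome assembly, from 22 to 7 for the mitochondrial ribosome, from 7 to 2 for the synthetases and from 12 to 3 for mTORC1, while over all genes 13.2% rose and 9.11% fell with it. The mitochondrial calls became 14 without tissue array 1, where 17.8% of all genes rose and 16.2% fell. Those of the synthetases became 4 without tissue array 3, where 17.3% of all genes rose and 14.7% fell.

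Probe sets that carried a member's symbol beside others held falls as well as rises. Of the 34 ribosomal ones 4 rose and 4 fell (11.8% each, against 21.9% and 22.7% of all genes), whereas 0 of the 40 subunit genes with a probe set of their own fell. The shared ones had a median of 0.04 and a range of -0.41 to 0.31, lower than the -0.16 at which the subunit genes ended. Because copies share such probe sets, a value cannot be given to a single gene. The probe set of Rps25 and its copies had the lowest difference (-0.41 ± 0.08) and that of Rpl13 and its copies the highest (0.31 ± 0.07). The others that passed were those of Rps18, Rpl29 and Rps2 (higher) and of Rps21, Rps27 and Rpl36a (lower). Both Rps2 and Rpl36a had a further shared probe set that did not pass. The second, dim probe set of Rps24 rose by 0.38 ± 0.09 (adjusted p = 0.0102), while its bright one differed by -0.02 ± 0.06. Of the 4 factor probe sets with several symbols, that of Eif3e fell by 0.25 ± 0.07, and the 3 for Eif5, the factor that triggers GTP hydrolysis on eIF2, went apart: 0.20 ± 0.07, -0.55 ± 0.07 and 0.14 ± 0.11, the last of which did not pass (adjusted p = 0.321).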

How the data were processed

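Total RNA of rat ventral midbrain tissue and cultures was hybridised to 9 Affymetrix rat arrays. The deposited values are log2 intensities that the authors made with RMA, per the submitters' processing notes, which name no version. RMA corrects background, normalizes between arrays and summarises probe sets. After 57 Affymetrix controls were dropped, limma 3.58.1 in R 4.3.3 (lmFit, eBayes) compared the 6 culture with the 3 tissue arrays over 15866 probe sets, without a block, with Benjamini-Hochberg adjustment (threshold 0.05). Precision is limited by the few arrays. The fit was tested on simulated arrays. Ratios of paralogs were tested by exact permutation (scipy 1.17.1).

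The members, lists and tests were chosen with earlier results of these data known. By rule the text named, in each class, up to 6 risen and 6 fallen members, by size of difference, that passed and whose groups did not overlap. It always named Rps6, Rplp0, Rpl4, Rpl27, Eef1a1, Eef1a2, Eef2, Eef2k, Eif4e, Eif5a, Eif6, Eif2s1 and the paralog pairs with both members present, and of each related list the 2 largest changes each way that passed. Other genes were named after their values were seen. Promoter sequences came from RefSeq (GRCr8); 3 members with several entries and 10 with no entry were not searched. Same-numbered tissue and culture arrays did not deviate together (correlations 0.08, -0.12 and -0.11), so the numbers were not taken as pairs.

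The 20 alternatives were a repeated quantile normalization, centring on all probe sets or on the bright genes, leaving out the dimmest 40%, the mean or the dimmest probe set of a gene, a replicate block, a random block for the 3 sets of arrays (correlation 0.45), each culture set alone, a trended eBayes, and each of the 9 arrays left out. Where arrays are said to be centred on the bright genes, the reference was the brightest 10% of probe sets, without those of single-symbol members.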

Additional observations from a re-analysis of the deposited data

Results flagged for a closer look

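Rpl21 had a culture array that stood apart from the rest of its group. It read 12.46 on MesPC replicate 2 and 12.15 to 12.22 on the other 5 culture arrays, a gap of 0.777 of the whole range, which is above Dixon's 95% critical value for a group of 6. It was the only one of the 44 genes named by rule that did so, and chance marks about 1 in 20. Its call held without this array.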

How the results depend on the processing

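The 28 members that passed kept the sign of their difference in each of the alternatives run (their dim probe sets were not all tested under the 40% filter). Of the 6 ribosomal calls 1 held in all 9 fits with an array left out and 2 with the random block, and of the 22 factor calls 13 and 10. Of the ribosomal proteins, the 5 that rose became 1 when centred on the bright genes, 12 with the replicate block, 1 with the random block, 13 with culture arrays 1 to 3 alone, 1 with arrays 4 to 6 alone, and 1 to 9 with an array left out (1 without tissue array 1, 2 without tissue array 3, 9 without culture array 6). The 1 that fell became 3 when centred on all probe sets, 2 when centred on the bright genes, 0 without the dimmest 40%, 2 with arrays 4 to 6 alone, and 1 to 2 with an array left out. Their median of 0.02 became -0.0462 when centred on the bright genes, 0.10 with the replicate block and with arrays 1 to 3 alone, and 0.01 to 0.05 with an array left out. Of the factors, the 11 that rose became 6 with the random block and 9 to 13 with an array left out, and the 11 that fell became 4 and 6 to 11. Their median of 0.03 became -0.0384 when centred on the bright genes, 0.0681 with the replicate block and with arrays 1 to 3 alone, and 0.01 to 0.06 with an array left out. The called members of the related lists, with the random block and then with an array left out, went from 18 to 5 and 12 to 19 (assembly), from 22 to 7 and 14 to 24 (mitochondrial ribosome), from 7 to 2 and 4 to 7 (synthetases), from 12 to 3 and 9 to 12 (mTORC1), and from 6 to 1 and 2 to 7 (poly(A) and termination, 3 with arrays 4 to 6 alone). Rack1, the 1 called partner, became 0 without the dimmest 40%, with the replicate block, the random block and arrays 1 to 3 alone, and 0 to 1 with an array left out. The cause of these moves was not tested. Over all genes, the calls of 2279 higher and 2366 lower became 1790 and 3111 when centred on the bright genes, and 2041 and 2955 when centred on all probe sets. Of all genes 24.7% rose and 25.5% fell with the replicate block, and 13.2% and 9.11% with the random block. With culture arrays 1 to 3 alone these shares were 25.7% and 27.0%, and with arrays 4 to 6 alone 22.9% and 27.2%. With an array left out 17.3% to 22.3% rose and 14.7% to 22.3% fell. The replicate block used arrays 1 to 3 of both groups, whose shared numbers are not said to pair them.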
